A study of Mus musculus with 6 samples.

Results

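ADP-ribosylation genes that interferons are known to induce were described in medullary thymic epithelial cells (mTEC), stromal cells of the thymus that present antigens of peripheral tissues during T cell selection. The 7 genes were Parp9, Parp10, Parp11, Parp12, Parp14, Dtx3l and Zc3hav1, chosen by name out of 43432 gene IDs in the count table, and each was found under 1 gene ID. The mice were C57BL/6 animals aged 4 weeks, either CopaE241K/+ (MUT, 3 libraries), heterozygous for an allele of Copa, or Copa+/+ (WT, 3 libraries). Copa encodes the alpha subunit of COPI, the vesicle coat of retrograde transport between Golgi and endoplasmic reticulum, and no other allele or treatment is named for either group. The labels do not say whether a library is 1 animal or a pool, so p-values reflect how far these libraries differ among themselves, and some of that may be technical. STING activation and type I interferons in the thymus are the subject given in the study's title.

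PARP enzymes move ADP-ribose from NAD onto proteins or nucleic acids. Most interferon-induced members of the family add a single ADP-ribose unit, while PARP9 and ZAP, the product of Zc3hav1, are regarded as having little or no such activity of their own. Deltex proteins are ubiquitin ligases, and DTX3L forms a complex with PARP9. Several viruses encode macrodomain enzymes that remove ADP-ribose, and the family is known for its part in antiviral defence.

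Library totals ran from 21218363 to 23366238 counts in MUT and from 19934513 to 22880945 in WT. Levels are given as CPM (counts divided by library size) on library sizes scaled by TMM, a normalization to the bulk of genes; 1 count was worth between 0.0361 and 0.0574 CPM. Copa itself had a log2 fold change of -0.20 (SE 0.34), and its count does not check a change of 1 amino acid. Each of the 9 medullary markers was counted in every library, so the listed markers of the labelled cell type were present. Their summed level was 9538 to 11190 CPM in MUT and 10020 to 12500 CPM in WT. Most of it came from the MHC class II gene H2-Aa, so the sum mainly follows that gene. Epcam, 1 of the 9, was lower in all MUT libraries than in all WT libraries, beside 3.96% of all tested genes. It measured 484.1 ± 95.2 CPM in MUT and 673.6 ± 67.4 CPM in WT (log2 fold change -0.48, SE 0.28). All 11 thymocyte markers were counted in 4 of the libraries, and Ptcra alone was at 0 in MUT library 1 and WT library 1; their summed level was 116.8 to 768.9 CPM in MUT and 191.1 to 512.2 CPM in WT. The 10 markers of dendritic cells and macrophages summed to 530.6 to 1343 CPM in MUT and 645.7 to 1157 CPM in WT, with Fcgr1 at 0 in MUT library 2, WT library 1 and WT library 2 and Siglech at 0 in MUT library 1. This myeloid list includes the pan-leukocyte gene Ptprc, which gave 384.4 CPM of the sum in MUT library 2. Of the 6 libraries, MUT library 2 had the highest Itgam, 127.7 CPM, and the lowest Adgre1, 1.72 CPM. The sums of thymocyte and of myeloid markers were both highest in MUT library 2 and, within WT, in WT library 2. For the myeloid sum this order includes Ptprc. Ptprc, Itgam and Csf1r were higher in MUT library 2 than in WT library 2. Lyz2, Cd68, Flt3, Adgre1, Itgax and Siglech were higher in WT library 2, with Lyz2 at 721.6 CPM there and 635.9 CPM in MUT library 2. Single thymocyte markers did not all follow their sum. Cd3e, Cd3g and Cd8a had 128.6, 29.8 and 86.9 CPM in WT library 1, above 55.2, 21.4 and 85.2 CPM in WT library 2. The other thymocyte markers were higher in WT library 2 than in WT library 1, such as Lck at 123.2 and 0.23 CPM.

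Parp14 and Dtx3l were the genes of this group whose 3 MUT libraries all lay above all 3 WT libraries, by a fitted 2.46-fold for Parp14 and 1.77-fold for Dtx3l. Parp9, Parp10 and Zc3hav1 had fitted values above 0 with overlapping genotypes, Parp12 lay near 0 and Parp11 had a fitted value below 0. No gene of the group passed edgeR's quasi-likelihood test at an adjusted p of 0.05, and neither did any of the 17172 genes tested, a background of 0%. At an unadjusted p under 0.05 stood 1 of the 7 genes, Parp14, beside 3.48% of all tested genes, and the non-overlapping order with MUT above WT was met by 2 of 7, beside 5.39% of all tested genes. Fitted values above 0 were found for 5 of 7, beside 49.4% of all tested genes, and the median log2 fold change was 0.65, beside -0.01 over all tested genes. That median was 0.29 without MUT library 2, 0.43 without WT library 1 and 1.05 without WT library 2. MUT library 2 held the highest summed thymocyte markers. The count at an unadjusted p under 0.05 was 0 without MUT library 1, beside 3.04% of the genes tested without it. It was also 0 without WT library 3, beside 5.9% of the genes tested without that library. Without WT library 2 it was 3, where Dtx3l and Zc3hav1 joined Parp14, beside 4.38% of the genes tested without it. DESeq2 called 0 of the 7 genes, against 0.629% of the genes it tested, and limma-voom called 0, against 0%. All 7 genes passed the filter on low counts, and each had at least 122 counts in every library.

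**Figure D1:**
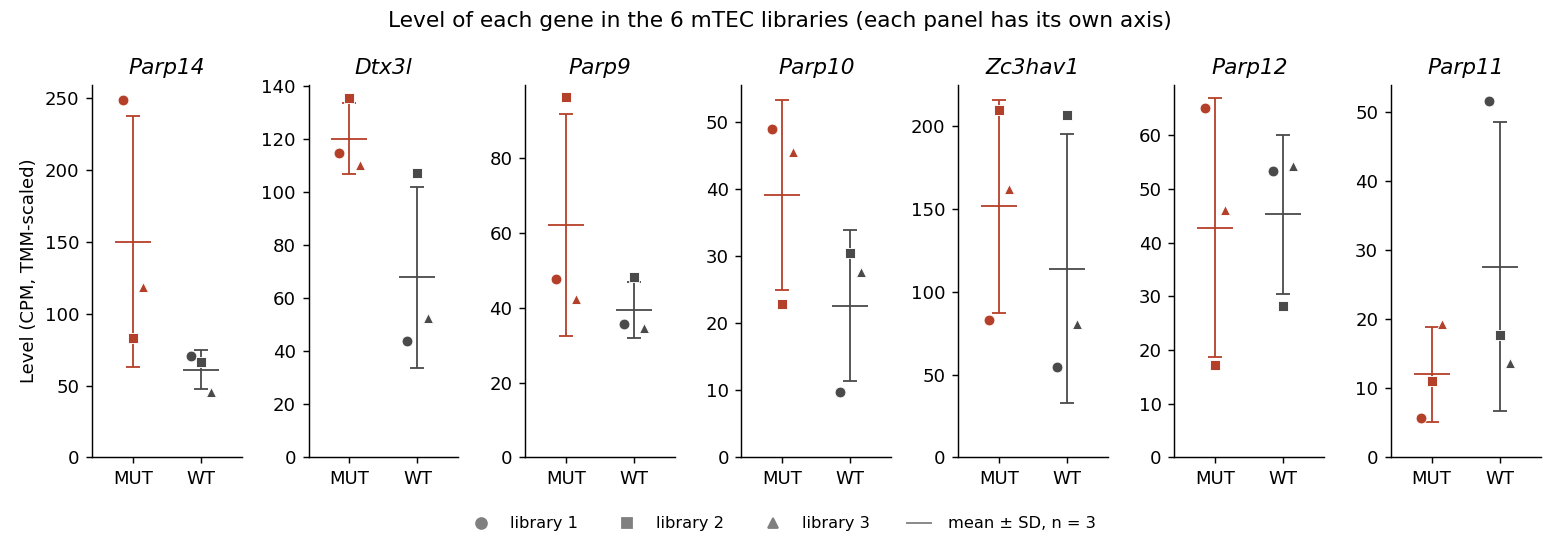
Level of each gene in CPM on linear axes that start at 0, with MUT libraries left and WT libraries right in each panel; symbols mark libraries 1, 2 and 3, and bars give the mean ± SD (n = 3). Parp14 and Dtx3l have all MUT points above all WT points, and MUT library 2 (square) is the highest point of Parp9 and the lowest of Parp12.

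Parp14 encodes a large macrodomain-containing mono-ADP-ribosyltransferase known as a cofactor of STAT6 (ENSMUSG00000034422, GRCm38 chromosome 16, 35832874 to 35871544, minus strand). It measured 249.0, 82.9 and 118.8 CPM in MUT libraries 1, 2 and 3, against 70.9, 66.7 and 45.5 CPM in WT libraries 1, 2 and 3. The lowest MUT library stood just above the highest WT library, and MUT library 1 stood far above the other two. The means were 150.2 ± 87.4 CPM in MUT and 61.0 ± 13.6 CPM in WT (SD, n = 3 each). The log2 fold change was 1.30 (SE 0.48) in edgeR, with an unadjusted p of 0.019 and an adjusted p of 0.999875. Without MUT library 1 it was 0.72, a fold of 1.65. Without both libraries numbered 2, an alternative chosen after seeing the data, it was 1.65 on the log2 scale. The libraries numbered 2 had the highest summed thymocyte and myeloid markers within each genotype. Not every gene rose in that alternative, and Parp9 fell to 0.34. In bulk libraries, a change in the share of a cell type and a change in RNA per cell cannot be told apart. A provisional transcript model of GENCODE, Gm49730, lies inside Parp14 on the same strand, shares 110 exonic bases with it and was not analysed here.

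Dtx3l encodes the ubiquitin ligase that pairs with PARP9 (ENSMUSG00000049502, chromosome 16, 35926511 to 35939151, minus strand). Its level was 114.7, 135.4 and 110.4 CPM in MUT libraries 1, 2 and 3, against 44.1, 107.1 and 52.6 CPM in WT libraries 1, 2 and 3. The MUT libraries lay close together, and WT library 2 came near them while the other WT libraries stood well below. The means were 120.2 ± 13.3 CPM in MUT and 67.9 ± 34.2 CPM in WT (SD, n = 3 each). The log2 fold change was 0.82 (SE 0.45; edgeR adjusted p 0.999875), and it was 1.30 without WT library 2 and 0.59 without WT library 1. In WT, library 2 was also the library with the highest summed thymocyte markers, 512.2 CPM. Cd3e, Cd3g and Cd8a were higher in WT library 1, and the other thymocyte markers were higher in WT library 2. The part of thymocytes in the Dtx3l level was not tested. Without both libraries numbered 2 the log2 fold change of Dtx3l was 1.20.

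Parp9 encodes the macrodomain partner of DTX3L (ENSMUSG00000022906, chromosome 16, 35938470 to 35972605, plus strand). Its level was 47.6, 96.4 and 42.4 CPM in MUT libraries 1, 2 and 3, against 35.7, 48.2 and 34.5 CPM in WT libraries 1, 2 and 3. MUT library 2 stood apart, and MUT libraries 1 and 3 lay below WT library 2, so the genotypes overlapped. The log2 fold change was 0.65 (SE 0.54; edgeR adjusted p 0.999875). It was 0.34 without both libraries numbered 2 and 0.18 without MUT library 2. That library also held 384.4 CPM of the pan-leukocyte gene Ptprc, beside 37.5 and 26.02 CPM in MUT libraries 1 and 3, and 24.3, 104.2 and 60.5 CPM in WT libraries 1, 2 and 3. The part of these cells in the Parp9 level was not tested.

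Parp9 and Dtx3l start head to head on opposite strands and overlap over 682 bases, of which 458 are exonic in both. The sources used here do not state whether reads were counted by strand, so reads from the shared bases could have gone to either gene or to neither. Parp14 lies on the same chromosome, 54966 bases from Dtx3l. The ratio of Parp9 to Dtx3l was 0.416, 0.712 and 0.384 in MUT libraries 1, 2 and 3, against 0.811, 0.4499 and 0.656 in WT libraries 1, 2 and 3. Dtx3l had more CPM than Parp9 in every library, and the ratios of the genotypes overlapped. The log2 ratio averaged -1.02 ± 0.47 in MUT and -0.66 ± 0.42 in WT (SD), a difference of -0.36 that did not exceed the spread between libraries (two-sided exact permutation p = 0.3; the smallest p that the 20 assignments allow is 0.1).

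The mono-ADP-ribosyltransferase genes Parp10, Parp12 and Parp11 showed 3 different patterns. Parp10, whose product was first described as a partner of MYC (ENSMUSG00000063268, chromosome 15, 76231174 to 76243441, minus strand), measured 49.1, 22.9 and 45.6 CPM in MUT libraries 1, 2 and 3, against 9.71, 30.5 and 27.6 CPM in WT libraries 1, 2 and 3. MUT libraries 1 and 3 stood above every WT library, whereas MUT library 2 lay below WT libraries 2 and 3, and WT library 1 was the lowest. Its log2 fold change was 0.79 (SE 0.69; edgeR adjusted p 0.999875), and was 1.06 without MUT library 2 and 0.43 without WT library 1. Without both libraries numbered 2 it was 1.33. The 3′ end of Parp10 shares 205 exonic bases with the 5′ end of Plec, a highly counted gene on the same strand with 4896, 1432 and 4083 counts in MUT libraries 1, 2 and 3 and 5614, 2098 and 3229 in WT libraries 1, 2 and 3, so reads from those bases are uncertain.

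Parp12 encodes a zinc-finger member that is found at the Golgi and restricts several RNA viruses (ENSMUSG00000038507, chromosome 6, 39086410 to 39118349, minus strand). It measured 65.1, 17.2 and 46.1 CPM in MUT libraries 1, 2 and 3, against 53.4, 28.2 and 54.4 CPM in WT libraries 1, 2 and 3. Within each genotype library 2 was the lowest, and the WT values lay inside the range of the MUT values. The log2 fold change was -0.08 (SE 0.62; edgeR adjusted p 0.999875), and its sign turned when MUT library 2 (0.29), WT library 1 (0.05) or WT library 3 (0.07) was left out. The interval of 1 SE either side thus takes in both a lower and a higher level, and the libraries give Parp12 no direction.

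Parp11 encodes a small WWE-domain member reported in human cells to act on the turnover of the interferon receptor IFNAR1 (ENSMUSG00000037997, chromosome 6, 127446840 to 127494261, plus strand). It measured 5.75, 11.0 and 19.3 CPM in MUT libraries 1, 2 and 3, against 51.6, 17.7 and 13.6 CPM in WT libraries 1, 2 and 3. WT library 1 stood far above the rest, and MUT library 3 lay above WT libraries 2 and 3. The log2 fold change was -1.20 (SE 0.87; edgeR adjusted p 0.999875), and was -0.39 without WT library 1. It was the only gene of the 7 whose fitted value was below 0 with each library left out in turn.

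Promoter windows from RefSeq (GRCm38.p6), 300 bases from 250 before to 50 after an annotated start, were at hand for 4 of the 7 genes: Dtx3l, Parp12, Zc3hav1 and Parp11, with 2 windows for the last. They were searched on both strands for GAAA, any 2 bases and GAAA again, the core of the interferon-stimulated response element, and for TTCNNNGAA, the core of the site bound by STAT dimers. Of the 5 windows, the upstream window of Parp11 held both, and the others held neither. The 250 bases before the starts of Parp11 (chr6:127446590-127446839, plus strand) and Zc3hav1 (chr6:38354604-38354853, minus strand) are shown, the first for its matches, which are in capitals, and the second as the gene with the highest level per length.
Parp11: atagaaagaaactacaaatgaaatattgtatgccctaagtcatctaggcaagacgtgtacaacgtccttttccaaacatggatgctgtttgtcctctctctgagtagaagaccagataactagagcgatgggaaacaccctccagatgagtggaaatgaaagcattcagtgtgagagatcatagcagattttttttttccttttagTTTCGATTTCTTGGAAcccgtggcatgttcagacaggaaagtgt
Zc3hav1: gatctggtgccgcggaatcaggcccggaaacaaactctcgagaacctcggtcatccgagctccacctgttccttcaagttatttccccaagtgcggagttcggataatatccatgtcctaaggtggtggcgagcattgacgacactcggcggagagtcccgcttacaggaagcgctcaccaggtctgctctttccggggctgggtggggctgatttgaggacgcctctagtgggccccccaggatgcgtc
In Parp11 the match to the response element reads TTTCGATTTC, on the reverse strand, 44 to 35 bases before the start, and the TTCNNNGAA match reads TTCTTGGAA, 37 to 29 bases before it, so that 3 bases belong to both. Of 32851 windows in the RefSeq table, 3.44% hold the response element core and 8.3% hold TTCNNNGAA. The Parp11 window has 42.0% G and C, beside 58.0% in the Zc3hav1 window and 73.7% in that of Parp12. A match describes letters in the window only, and no window was at hand for Parp9, Parp10 or Parp14.

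Zc3hav1 encodes ZAP, a zinc-finger protein that binds CpG-rich viral RNA and brings it to degradation (ENSMUSG00000029826, chromosome 6, 38305286 to 38354603, minus strand). It measured 83.1, 210.2 and 162.0 CPM in MUT libraries 1, 2 and 3, against 54.9, 206.6 and 80.4 CPM in WT libraries 1, 2 and 3. The libraries numbered 2 of both genotypes were the highest and nearly equal. These were also the libraries with the highest summed markers of thymocytes, 768.9 CPM in MUT library 2 and 512.2 CPM in WT library 2. Within WT, Cd3e, Cd3g and Cd8a were higher in library 1, where Zc3hav1 was lowest. The other thymocyte markers were higher in WT library 2 than in WT library 1. The part of thymocytes in the Zc3hav1 level was not tested. The log2 fold change was 0.41 (SE 0.53; edgeR adjusted p 0.999875). It was 1.15 without WT library 2, 0.08 without WT library 1 and 0.84 without both libraries numbered 2. ZAP is made in a long and a short form from this gene, which counts per gene do not separate.

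**Figure D2:**
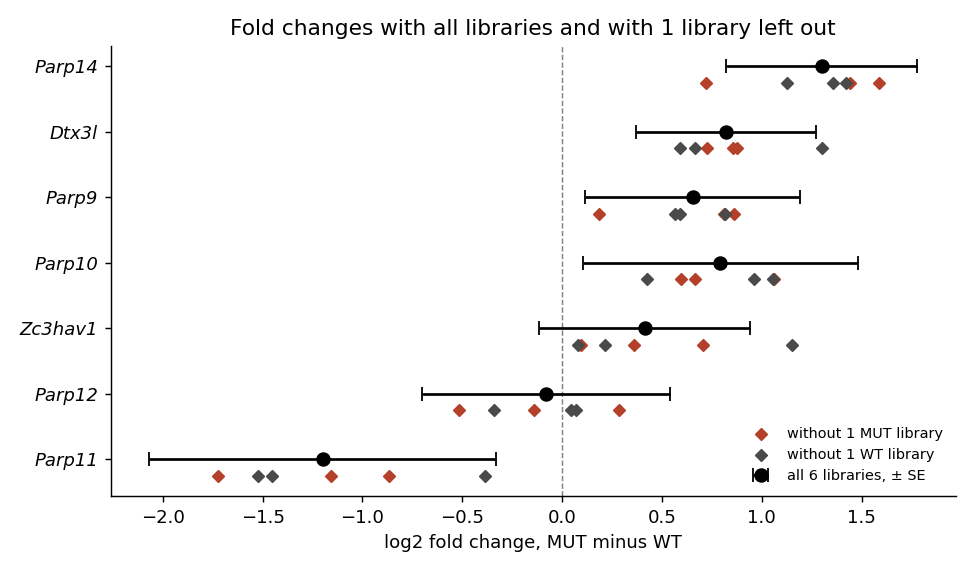
Log2 fold change, MUT minus WT, of each gene in edgeR (black, ± SE) and with 1 library left out (diamonds, red for MUT and grey for WT). Parp14 ranges from 0.72 to 1.59 and Dtx3l from 0.59 to 1.30 over the left-out libraries, Parp12 lies on both sides of 0, and Parp11 moves to -0.39 without 1 WT library.

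The 7 genes did not share 1 pattern over the libraries. Likeness was measured as the root mean square difference of log2 CPM over the 6 libraries, each gene first centred on its own mean. Among the 21 pairs of genes, Parp9 and Dtx3l were the closest, at 0.414, followed by Dtx3l and Zc3hav1 at 0.442 and Parp9 and Zc3hav1 at 0.546. Each of these 3 genes had its highest level in MUT library 2. Parp10, Parp12 and Parp14 had their highest level in MUT library 1, and in each of them MUT library 2 was the lowest of the MUT libraries. Parp11 lay farthest from the others, at 1.13 to 1.62, with its highest level in WT library 1 and its lowest in MUT library 1.

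**Figure D3:**
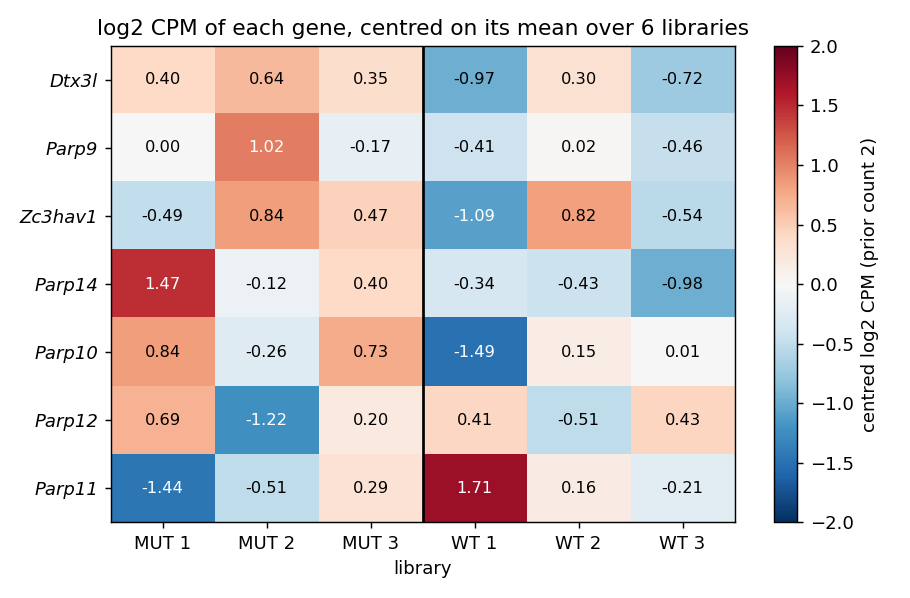
Log2 CPM (prior count 2) of each gene in each library, centred on the gene's mean over the 6 libraries, with MUT left and WT right of the line. Dtx3l, Parp9 and Zc3hav1 are high in MUT library 2 (0.64, 1.02 and 0.84), where Parp12 is at -1.22, and Parp11 reaches 1.71 in WT library 1.

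The mean centred profile of the 7 genes was 0.21, 0.06 and 0.33 in MUT libraries 1, 2 and 3, against -0.31, 0.07 and -0.35 in WT libraries 1, 2 and 3. Among 12730 other tested genes with a mean of at least 5 CPM, the nearest to it were the MHC class I gene H2-Q4 (root mean square difference 0.112), the ubiquitin ligase gene Rnf216 (0.115), Fnbp1l (0.121), the spectrin gene Sptbn1 (0.121) and the lysosomal gene Tmem106b (0.125), over the same 6 libraries. Their own log2 fold changes were small, at 0.25, 0.33, 0.28, 0.21 and 0.29, and each overlapped between genotypes. Dtx3l was itself farther from that mean, at 0.41, and Parp11 at 1.09, so the mean profile describes no single one of the 7 genes closely.

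Levels can be compared between genes only per length, here as CPM per kilobase of exon (GENCODE M21). On this scale Zc3hav1 was the highest in both genotypes, with 23.3 ± 9.85 in MUT and 17.5 ± 12.5 in WT, and Parp11 the lowest, with 1.71 ± 0.97 in MUT and 3.93 ± 2.97 in WT (SD, n = 3 each). In MUT the order of the means below Zc3hav1 was Dtx3l (21.0), Parp14 (16.1), Parp9 (12.8), Parp12 (10.7) and Parp10 (9.17). In WT it was Dtx3l (11.9), Parp12 (11.3), Parp9 (8.10), Parp14 (6.56) and Parp10 (5.29). All neighbours in these orders overlapped in their library ranges, except Parp10 and Parp11 in MUT, where every Parp10 value was above every Parp11 value. Parp14 took the third place in MUT and the fifth in WT, and this difference in order was not tested.

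Related genes outside the group were read from 6 lists with 47 genes, of which 45 were tested. At an adjusted p of 0.05 edgeR called none of the 45, and 0 had an unadjusted p under 0.05, beside 3.48% of all tested genes. The order with all MUT libraries above all WT libraries was met by 5.39% of all tested genes. It was met by 1 gene in each of the other PARP, other Deltex and ADP-ribose removal lists, and by 0 in the remaining lists. Of the 10 other PARP genes, 4 were fitted above 0 and the median log2 fold change was -0.11. Parp8, a mono-ADP-ribosyltransferase gene, had the smallest p of them, at 143.9 ± 114 CPM in MUT and 71.1 ± 27.9 CPM in WT (log2 fold change 1.02, SE 0.56), and MUT library 1 held 275.4 CPM of it. Parp16, whose product sits in the endoplasmic reticulum membrane, measured 7.41 ± 2.58 CPM in MUT and 20.2 ± 9.95 CPM in WT (-1.45, SE 0.95). The tankyrase genes Tnks2 and Tnks had log2 fold changes of 0.34 (SE 0.31) and -0.45 (SE 0.51). Tnks2 measured 258.1 ± 1.88 CPM in MUT and 203.3 ± 38.0 CPM in WT without overlap between the genotypes.

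Among the 4 other Deltex genes, 2 were fitted above 0 and the median was -0.02. Dtx1, known as a Notch target in thymocytes, measured 13.2 ± 7.82 CPM in MUT and 3.76 ± 2.93 CPM in WT without overlap (1.80, SE 1.23). Its lowest MUT value, 7.26 CPM in library 3, stood just above its highest WT value, 7.02 CPM in library 2. Dtx1 was highest, at 22.0 CPM, in MUT library 2, the library with the highest summed thymocyte markers, whose part was not tested. Dtx2, Dtx3 and Dtx4 had log2 fold changes of -0.26 (SE 0.62), -0.20 (SE 0.47) and 0.16 (SE 1.56).

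Among 8 genes whose products remove or bind ADP-ribose, 4 were fitted above 0 and the median was -0.03. Adprhl2, which encodes the hydrolase ARH3 that removes ADP-ribose from serine, measured 12.2 ± 2.33 CPM in MUT and 3.95 ± 2.16 CPM in WT without overlap (1.62, SE 1.18). Parg, which encodes the hydrolase of ADP-ribose chains, measured 36.1 ± 10.1 CPM in MUT and 24.9 ± 1.24 CPM in WT (0.54, SE 0.62). Adprh and the mitochondrial macrodomain gene Macrod1 had log2 fold changes of 0.63 (SE 0.79) and -1.18 (SE 1.80).

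Among 7 genes for cofactors and regulators of ZAP, 4 were fitted above 0 and the median was 0.13. Trim25, the ubiquitin ligase that ZAP needs for full activity, measured 213.3 ± 44.2 CPM in MUT and 156.7 ± 17.2 CPM in WT (0.44, SE 0.34). Khnyn, which encodes an endonuclease that works with ZAP, had 152.7 CPM in MUT library 2, with 18.7 and 43.9 CPM in MUT libraries 1 and 3 and 47.5, 32.7 and 33.7 CPM in WT libraries 1, 2 and 3 (0.92, SE 0.70). N4bp1 and Dhx30 had log2 fold changes of -0.57 (SE 0.45) and -2.13 (SE 1.79), and WT library 1 was the highest for both, at 162.6 CPM and 16.5 CPM.

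For NAD, the substrate of these enzymes, 11 of 13 listed genes were tested, 5 were fitted above 0 and the median was -0.15. Nampt, the rate-limiting enzyme of NAD salvage, measured 282.0 ± 60.9 CPM in MUT and 323.9 ± 89.5 CPM in WT (-0.20, SE 0.33). Nmnat2, Nmrk2 and Nmrk1 had log2 fold changes of 1.46 (SE 1.09), 2.23 (SE 2.38) and -0.59 (SE 0.66).

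Among 5 genes for the transcription factors that carry interferon signals, 3 were fitted above 0 and the median was 0.21. Irf1 measured 136.7 ± 36.0 CPM in MUT and 85.1 ± 15.2 CPM in WT (0.68, SE 0.39). Stat2 and Irf9 had log2 fold changes of -0.46 (SE 0.56) and 0.21 (SE 0.45). The highest Stat2 level, 415.5 CPM, was in WT library 1, as it was for Parp11.

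**Figure D4:**
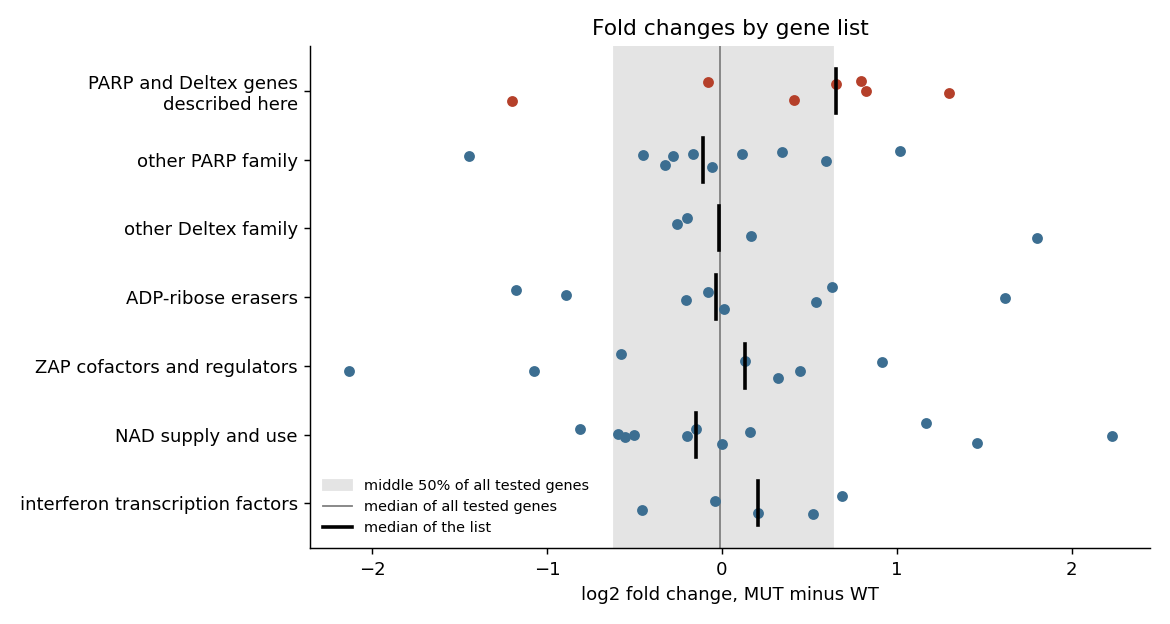
Log2 fold change, MUT minus WT, of every tested gene (points) in the 7 genes described here (red) and the 6 related lists (blue), with the list median (black bar) beside the median and the middle range of all tested genes (grey). The 7 genes have a median of 0.65 (0.29 without MUT library 2), and the medians of the related lists lie between -0.15 and 0.21.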

How the data were processed

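Total RNA of mTEC was made into cDNA by Nugen Ovation amplification and into libraries with Nextera XT, per the labels' protocols; no molecular identifiers are described. The table the authors deposited holds unnormalized read counts for Ensembl gene IDs. STAR 2.4.2a, DESeq2 1.26.0 and build GRCm38 are named, without roles, per the submitters' processing notes; the counter, its annotation and whether it used strand are not given there. Symbols were matched for 42462 of 43432 IDs; coordinates are from GENCODE M21 (GRCm38).

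MUT minus WT was tested with edgeR 4.0.16 (R 4.3.3): quasi-likelihood F-tests (robust) on genotype alone after filterByExpr and TMM, Benjamini-Hochberg adjustment over 17172 genes at 0.05. The test was checked on simulated data, where calls were required only at a large fold and a spread below that of these data. That check does not show which changes the test could find here. Every pair of libraries differed beyond sampling noise (chi-square per degree of freedom at least 68.6). Alternatives were DESeq2 1.42.0 and limma 3.58.1 (voom), other factors, other filters, the replicate block and left-out libraries.

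The 7 genes and the lists were chosen with earlier results of these data known. Named beside them are up to 4 genes per list with the smallest p, the 5 genes nearest in profile, and Copa; Plec, Ptprc and single markers were named after their values were seen. 1 gene that the rule names is not reported here.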

Additional observations from a re-analysis of the deposited data

How the results depend on the processing

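None of the 7 genes was called in any setting tried. The count over all genes moved from 0 to 73 without a filter on low counts (0.253% of genes tested), 116 with DESeq2 (0.629%), 1 with the replicate block in edgeR (0.00582%) and 308 with the block in DESeq2 (1.8%); the cause was not tested. Over 105 alternative fits of single genes, 4 turned a sign, all for Parp12: 0.29 without MUT library 2, 0.05 without WT library 1, 0.07 without WT library 3 and 0.033 without both libraries numbered 2, an alternative chosen after seeing the data. With 1 library left out the log2 fold changes ran from 0.72 to 1.59 for Parp14, 0.59 to 1.30 for Dtx3l, 0.18 to 0.86 for Parp9, 0.43 to 1.06 for Parp10, 0.08 to 1.15 for Zc3hav1, -0.52 to 0.29 for Parp12 and -1.72 to -0.39 for Parp11. The Parp9 to Dtx3l difference ran from -0.62 to -0.17. The number of genes with all MUT libraries above all WT libraries was 2 to 4 with 1 library left out (9.08% to 12.6% of all genes), reaching 4 without WT library 2 (9.81%), and was 5 without both libraries numbered 2 (17.5%); fewer libraries make this order easier to meet. It was 3 on total counts, where Parp9 joined (5.82% of all genes). Over all genes the median was 0.15 in DESeq2, beside -0.01 in edgeR. Deviations from the group means correlated at 0.0592 to 0.127 between libraries of the same number, and 6 of 6 libraries correlated best with their own number. Centring on the group means ties these correlations to each other, so they are not 6 separate agreements. Same-numbered libraries also have source names with a common ending, which the labels do not explain, so whether the numbers mark a shared batch is not known. Parp14, Dtx3l, Parp9 and Zc3hav1, 4 of the 7 genes, were higher in MUT in 3 of 3 same-numbered comparisons, as were 14.2% of all tested genes. For Zc3hav1 the libraries numbered 2 were a near tie, with 4388 counts in each and a log2 ratio of 0.0247 after TMM scaling. With the block, Parp14 had a log2 fold change of 1.17 and Dtx3l 0.93, and both had an unadjusted p under 0.05 in edgeR (3.14% of all genes). The libraries were amplified and no molecular identifiers are described, so read counts are not taken as the number of molecules sampled.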
